A study of Vitis vinifera with 15 samples.

Results

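In leaves of the grapevine cultivar “Gaglioppo”, 6 glutathione S-transferase genes did not move together when the rootstock changed. Vv08s0040g00920, annotated as GSTU7, had its lowest level on 1103 Paulsen and its highest on 41B, while Vv06s0004g05680 (also GSTU7), Vv19s0093g00310 (GSTU19) and Vv12s0035g02100 (GSTZ1) had their lowest level on 41B. Vv19s0093g00320 (GST1) was also lowest on 41B, and Vv04s0079g00690 (GST4) stayed near 1 FPKM with replicates that overlapped between all combinations. These 6 genes were taken from a list of identifiers, 6 of the 29970 genes measured. They were selected on their FPKM levels in these same libraries, above all on the contrast of GAG-41B with GAG-1103P, so that their values and fold changes are given as a description and without a test. The part of the supplementary annotation that could be read names 13 other glutathione S-transferase genes. They serve as the family around the 6 but need not be all of it.

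Glutathione S-transferases are enzymes that join the tripeptide glutathione to reactive or foreign molecules, which can then be carried into the vacuole by transporters. The tau class (GSTU) is specific to plants and is known for its response to stress, xenobiotics and hormones. The zeta class (GSTZ) is shared with animals, and its Arabidopsis member works as a maleylacetoacetate isomerase in the breakdown of tyrosine. In grapevine, GST4 is known for its part in the transport of anthocyanins to the vacuole, and GST1 has been studied beside it in the same context.

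The scion was the same in every sample and only the rootstock differed. Non-senescing leaves were taken in 1 vineyard from vines on 1103 Paulsen (GAG-1103P) and 17-37Mgt (GAG-17-37), both V. rupestris × V. berlandieri, on Kober 5BB (GAG-KOB, V. riparia × V. berlandieri), on 3309 Couderc (GAG-3309C, V. riparia × V. rupestris) and on 41B (GAG-41B), the only rootstock with a V. vinifera parent (“Chasselas”). Polyadenylated RNA of each combination was sequenced in 3 libraries, called replicates A, B and C, each made from pooled leaves of several vines. Vines of 1 combination stood together, so that rootstock and place in the vineyard cannot be told apart. GAG-1103P was the reference of the study and is the reference here, and all 4 comparisons with it share its 3 libraries.

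Levels are in FPKM, fragments per kilobase of transcript scaled for sequencing depth, which corrects for gene length. For the scaling between libraries the paper names a geometric method. FPKM does not give the number of reads behind a value. The FPKM values of a library summed to between 2208240 and 2221125 in GAG-41B and to between 1558965 and 1797627 in the other 12 libraries. Among 4 photosynthesis genes used to check the tissue, PsbO (Vv00s0207g00210), a subunit of photosystem II, stood at 1681 FPKM in GAG-1103P and 1565 in GAG-41B, and PSAF (Vv00s0125g00280), of photosystem I, at 573 and 972. The 2 rows annotated as LHCB3, a light-harvesting protein, were low, at 0.163 and 0.202 FPKM in GAG-1103P and at 2.59 and 2.2 in GAG-41B. In bulk leaf RNA, a change in the share of a cell type cannot be told apart from a change in RNA per cell.

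Vv08s0040g00920 was the tau class gene with the highest level in GAG-41B relative to GAG-1103P among the 6. Its replicates A, B and C had 0.493, 0.625 and 0.764 FPKM in GAG-1103P, 2.53, 2.89 and 2.49 in GAG-17-37, and 4.55, 6.22 and 5.02 in GAG-3309C. They had 15.2, 17.9 and 17.2 FPKM in GAG-KOB and 20.6, 20.8 and 27.5 in GAG-41B. The 5 combinations formed 5 separate ranges, and the lowest GAG-41B library stood above the highest GAG-KOB library. The mean went from 0.627 ± 0.136 FPKM (SD, n = 3) in GAG-1103P to 23 ± 3.94 in GAG-41B, a ratio of 36.7. On the scale of log2(FPKM + 0.1), which understates ratios at low levels, the difference from GAG-1103P was 1.92 in GAG-17-37, 2.89 in GAG-3309C, 4.55 in GAG-KOB and 4.99 in GAG-41B, each with a standard error of 0.16.

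Vv06s0004g05680 carries the same GSTU7 annotation and showed the reverse order, at a far higher level. Its replicates had 876, 977 and 873 FPKM in GAG-1103P, 512, 519 and 519 in GAG-17-37, and 506, 477 and 475 in GAG-3309C. They had 270, 291 and 312 FPKM in GAG-KOB and 166, 141 and 169 in GAG-41B. Again no 2 combinations overlapped, although the gap between GAG-17-37 and GAG-3309C was narrow (512 against 506 FPKM at its edges). The mean was 909 ± 59.4 FPKM (SD, n = 3) in GAG-1103P and 158 ± 15.4 in GAG-41B, a ratio of 5.74. The log2 difference from GAG-1103P was −0.81 in GAG-17-37, −0.90 in GAG-3309C, −1.64 in GAG-KOB and −2.52 in GAG-41B (standard error 0.07).

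Put side by side, the pair kept one order across the combinations, GAG-1103P, GAG-17-37, GAG-3309C, GAG-KOB and GAG-41B, upward for Vv08s0040g00920 and downward for Vv06s0004g05680. The level of Vv06s0004g05680 was 1495 ± 323 times that of Vv08s0040g00920 in GAG-1103P (mean ± SD of the ratio within a library, n = 3). This ratio was 197 ± 15 in GAG-17-37, 94.2 ± 17.3 in GAG-3309C, 17.4 ± 1.01 in GAG-KOB and 6.97 ± 0.981 in GAG-41B. Both genes are quantified within the same library, so that the ratio does not depend on how libraries were scaled to each other. Pearson's r between both genes on the log2 scale was −0.94 over the 15 libraries, which form 5 groups of 3. After the mean of each combination had been subtracted, r was 0.22, so that the opposite order was seen between combinations and not among the replicates within them.

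**Figure D1:**
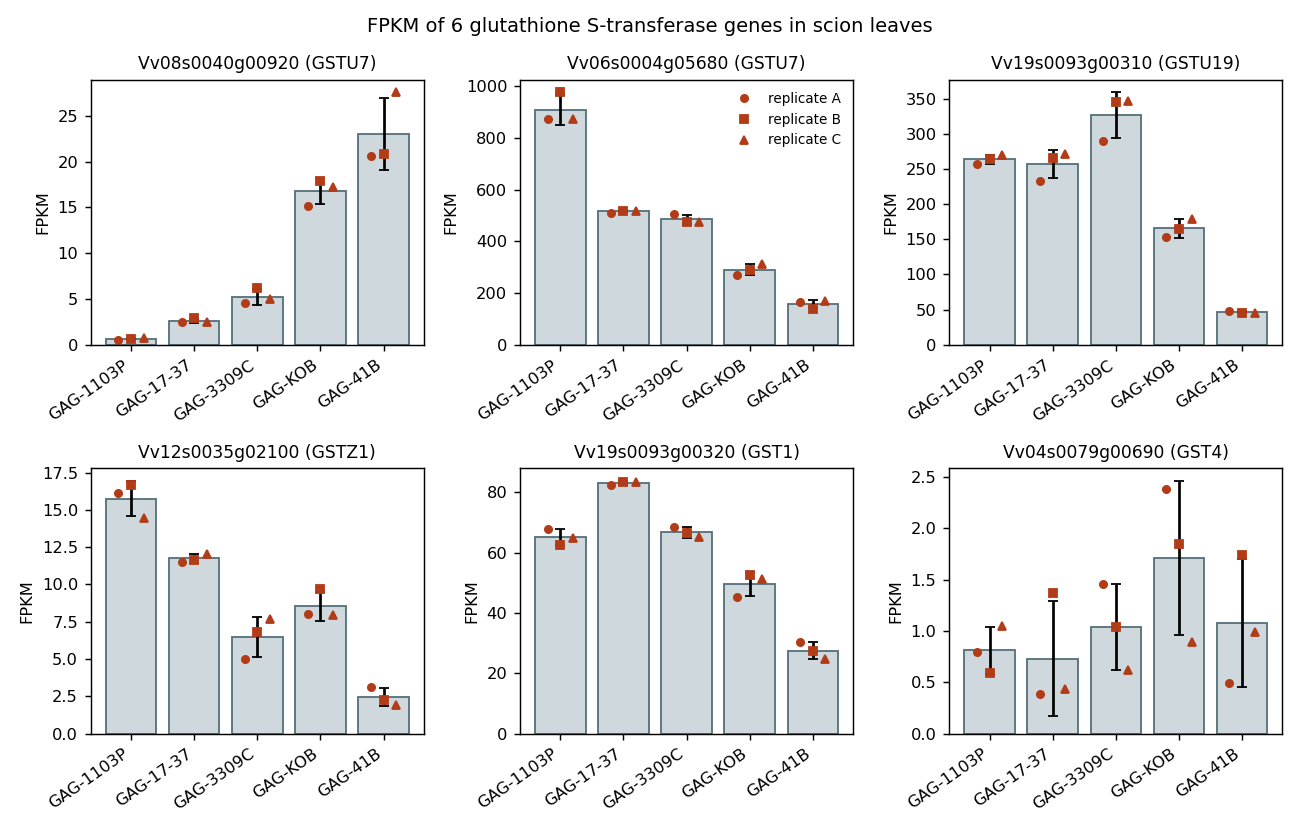
FPKM (vertical axes, from 0, each with its own range) of the 6 genes in the 5 graft combinations, with bars for the mean of 3 libraries, error bars for the SD and symbols for replicates A, B and C. Vv08s0040g00920 climbs from 0.627 to 23 FPKM toward GAG-41B, 4 genes have their lowest bar in GAG-41B, and the replicates of Vv04s0079g00690 overlap throughout.

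Vv19s0093g00310, the GSTU19 gene, was low in GAG-41B but did not share the graded order of Vv06s0004g05680. Its replicates had 258, 264 and 269 FPKM in GAG-1103P, 234, 266 and 271 in GAG-17-37, and 290, 345 and 346 in GAG-3309C. They had 153, 165 and 179 FPKM in GAG-KOB and 48.2, 45.2 and 45.4 in GAG-41B. GAG-1103P and GAG-17-37 overlapped, GAG-3309C lay above both, and GAG-KOB and GAG-41B lay below. The log2 difference from GAG-1103P was 0.31 in GAG-3309C, −0.67 in GAG-KOB and −2.51 in GAG-41B (standard error 0.08). In GAG-17-37 it was −0.04, smaller than its error, and it was above 0 with the same FPKM total in every library, after quantile normalization and without replicate A. The highest mean, 327 ± 32.1 FPKM in GAG-3309C, was 7.06 times the lowest, 46.3 ± 1.69 in GAG-41B.

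Vv19s0093g00320 (GST1) carries the next identifier in the matrix after Vv19s0093g00310. Its replicates had 67.8, 62.5 and 64.9 FPKM in GAG-1103P, 82.4, 83.4 and 83.5 in GAG-17-37, and 68.6, 66.3 and 65.2 in GAG-3309C. They had 45.2, 52.5 and 51.4 FPKM in GAG-KOB and 30.3, 27.3 and 24.8 in GAG-41B. GAG-17-37 was the highest combination, GAG-3309C and GAG-1103P overlapped, and GAG-41B was the lowest. The log2 difference from GAG-1103P was 0.35 in GAG-17-37, 0.04 in GAG-3309C, −0.39 in GAG-KOB and −1.25 in GAG-41B (standard error 0.07). The means spanned 3.03-fold, from 27.5 ± 2.77 to 83.1 ± 0.610 FPKM (SD, n = 3), less than the 7.06-fold of its neighbor.

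The 2 adjacent genes had similar but not identical profiles. Their r over the 15 libraries was 0.94, and 0.25 after the combination means had been subtracted. The level of Vv19s0093g00310 was 4.06 ± 0.227 times that of Vv19s0093g00320 in GAG-1103P, 4.91 ± 0.596 in GAG-3309C, 3.33 ± 0.182 in GAG-KOB, 3.09 ± 0.225 in GAG-17-37 and 1.69 ± 0.126 in GAG-41B (SD, n = 3). In GAG-41B the highest of the 3 ratios, 1.84, was below the lowest in any other combination, 2.83 in GAG-17-37. How reads that fit more than 1 gene of this family were assigned is not given in the sources used here, so that the split of the signal between close family members is uncertain.

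**Figure D2:**
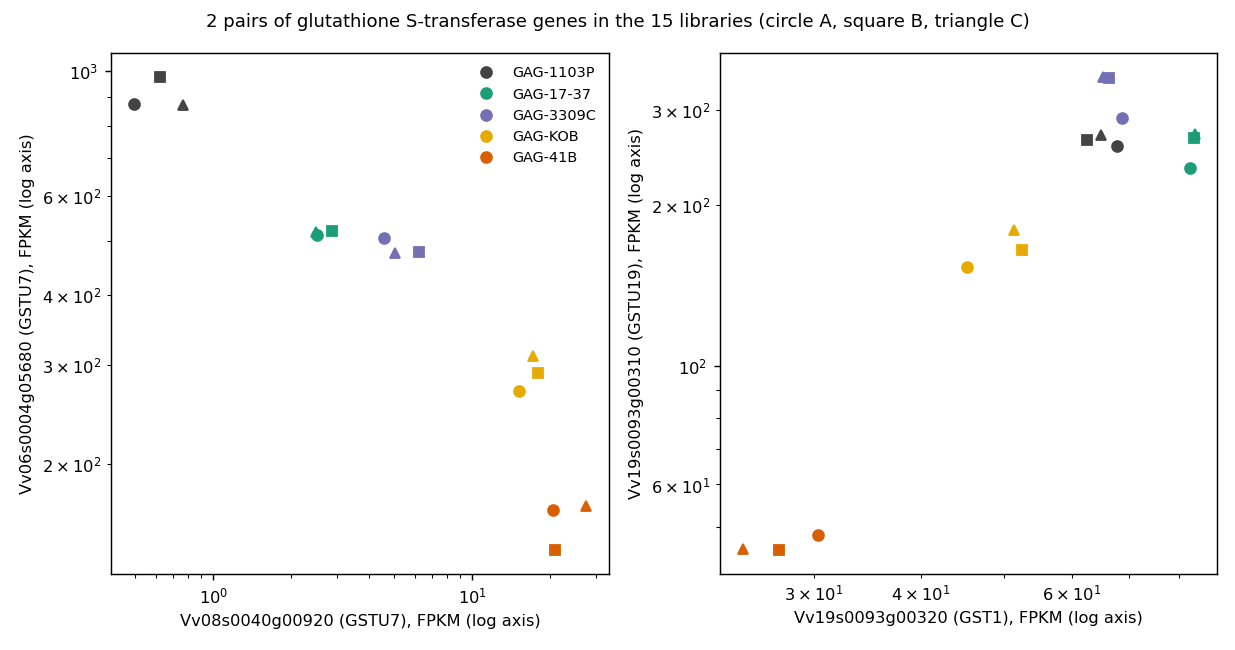
FPKM in the 15 libraries on log axes for Vv08s0040g00920 against Vv06s0004g05680 (left) and for Vv19s0093g00320 against Vv19s0093g00310 (right), with colors for combinations and symbols for replicates. The combinations run downward from GAG-1103P to GAG-41B on the left (r −0.94), whereas on the right the 3 GAG-41B libraries lie apart at the bottom left (r 0.94).

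Vv12s0035g02100, annotated as GSTZ1, was expressed at a lower level than the tau class genes that were lower in GAG-41B. Its replicates had 16.1, 16.7 and 14.4 FPKM in GAG-1103P, 11.5, 11.6 and 12.1 in GAG-17-37, and 7.99, 9.67 and 7.95 in GAG-KOB. They had 4.98, 6.78 and 7.67 FPKM in GAG-3309C and 3.09, 2.24 and 1.93 in GAG-41B. All 5 ranges were separate, with GAG-KOB above GAG-3309C, which is the other way around than for Vv19s0093g00310 and Vv06s0004g05680. The mean was 15.7 ± 1.18 FPKM (SD, n = 3) in GAG-1103P and 2.42 ± 0.599 in GAG-41B, a ratio of 6.51. The log2 difference from GAG-1103P was −0.42 in GAG-17-37, −0.88 in GAG-KOB, −1.29 in GAG-3309C and −2.68 in GAG-41B (standard error 0.17). Relative to Vv08s0040g00920, this gene went from 26.1 ± 6.96 times its level in GAG-1103P to 0.109 ± 0.0400 times in GAG-41B.

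Vv04s0079g00690 (GST4), the anthocyanin-related gene, was low, with a mean of 1.07 FPKM over the 15 libraries. Of all genes in the matrix, 40.9% had a lower mean. Its replicates had 0.799, 0.588 and 1.05 FPKM in GAG-1103P, 0.389, 1.37 and 0.432 in GAG-17-37, and 1.46, 1.03 and 0.624 in GAG-3309C. They had 2.38, 1.85 and 0.895 FPKM in GAG-KOB and 0.497, 1.74 and 0.990 in GAG-41B. Every combination overlapped every other, and within a combination the SD was between 28.4% and 76.0% of the mean. The log2 difference from GAG-1103P was 0.25 in GAG-41B, 0.92 in GAG-KOB, −0.30 in GAG-17-37 and 0.28 in GAG-3309C, with a standard error of 0.52. The GAG-41B value was below 0 with the same FPKM total in every library and without replicate B of GAG-41B. A difference of GST4 between rootstocks was not detectable with this spread.

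Among the 6 genes, 1 stood above GAG-1103P in all 3 GAG-41B libraries and 4 stood below without overlap, where 36.3% of the 21364 genes tested were higher without overlap and 35.9% lower. In GAG-KOB it was also 1 higher and 4 lower (30.8% and 30.5% of all genes). In GAG-3309C 2 were higher and 2 lower (25.7% and 26%), and in GAG-17-37 2 were higher and 2 lower (25.3% and 23.2%). Since the 6 genes were listed with these values known, and 4 of them come from the study's list of 4-fold changes, these counts only describe them.

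Outside the 6, the other listed genes that could be tested lay on the side of Vv08s0040g00920. Of the 13 other genes, 10 passed the filter of a mean of 0.1 FPKM over the 15 libraries, Vv00s0153g00070 (GSTU8) did not, and Vv00s0240g00010 and Vv00s0240g00020 were listed at 0 in every library. The test was limma on log2(FPKM + 0.1), with p-values adjusted over all 21364 genes and a threshold of 0.05. In GAG-41B 10 of the 10 rose and 0 fell, where 68.8% of all genes changed (34.4% rose and 34.4% fell). In GAG-KOB 10 rose and 0 fell, where 52.6% of all genes changed (26.9% rose and 25.7% fell). In GAG-3309C 8 rose and 0 fell, where 43.1% changed (22% and 21.1%), and in GAG-17-37 9 rose and 0 fell, where 34.3% changed (18.6% and 15.6%). Their median log2 fold change was 2.45 in GAG-41B, 1.50 in GAG-KOB, 1.22 in GAG-3309C and 1.07 in GAG-17-37, beside a median of 0 over all genes in each comparison. Of the 13 genes, 9 come from a list that the study drew up from 4-fold changes in these libraries. Of the 10 tested, 9 rose 4-fold or more in GAG-41B, so that the count of rises largely follows from this choice. Neither the direction nor the size of their changes is therefore independent evidence, also when set beside all genes. The 3 genes with a 4-fold decrease in GAG-41B were placed among the 6 by selection. The absence of falls among the others thus follows in part from this split.

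Vv16s0039g01070, another gene annotated as GSTU7, had the highest level of the listed family genes outside GAG-1103P. Its replicates had 397, 457 and 425 FPKM in GAG-1103P and 6274, 6601 and 6564 in GAG-41B, with means of 868 ± 59.7 FPKM in GAG-17-37, 1222 ± 98.3 in GAG-3309C and 2130 ± 136 in GAG-KOB (SD, n = 3). It rose in GAG-41B by a log2 fold change of 3.93 (standard error 0.08, limma adjusted p 1.50e-13). Its means ranked the 5 combinations as those of Vv08s0040g00920 did, at a much higher level.

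Vv01s0026g01340 (GSTU18) rose from 269 ± 4.06 FPKM in GAG-1103P to 1638 ± 28.2 in GAG-41B (log2 fold change 2.61, limma adjusted p 8.24e-14) and to 1040 ± 33.6 in GAG-KOB. In GAG-3309C it reached only 319 ± 21.9 FPKM, a log2 fold change of 0.25. Vv00s0153g00050 (GSTU8) rose from 90.7 ± 3.85 to 393 ± 1.53 FPKM in GAG-41B (2.12 on the log2 scale), and here GAG-3309C, at 249 ± 10.5 FPKM, lay above GAG-KOB, at 175 ± 6.42. Vv19s0093g00110 (GSTU22) rose from 9.26 ± 1.77 to 66.0 ± 1.86 FPKM in GAG-41B, a log2 fold change of 2.84.

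The remaining 6 of the 10 were low. Vv05s0049g01070 (GSTU1) rose from 4.21 to 21.1 FPKM in GAG-41B, and Vv05s0049g01100 and Vv05s0049g01080, both GSTU7 and close to it by identifier, rose from 1.07 to 7.92 and from 0.334 to 1.67 FPKM. Vv17s0000g06130 (GSTU9) rose from 0.736 to 5.10 FPKM in GAG-41B and also rose in the other 3 comparisons. Vv17s0000g02920 (GSTU7) rose in GAG-41B, from 1.03 to 5.14 FPKM, and in GAG-KOB, while its values of 1.17 in GAG-3309C and 1.50 in GAG-17-37 did not pass the test (limma adjusted p 0.788 and 0.212). Vv00s0240g00050 (GSTU19) went from 0.413 to 0.962 FPKM in GAG-41B (limma adjusted p 0.0304), a call that was lost when replicate B or C of GAG-1103P or replicate B of GAG-41B was left out, with log2 fold changes of 0.80, 0.84 and 0.53 against 0.98 with all libraries. In GAG-3309C this gene did not pass the test (limma adjusted p 0.351).

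**Figure D3:**
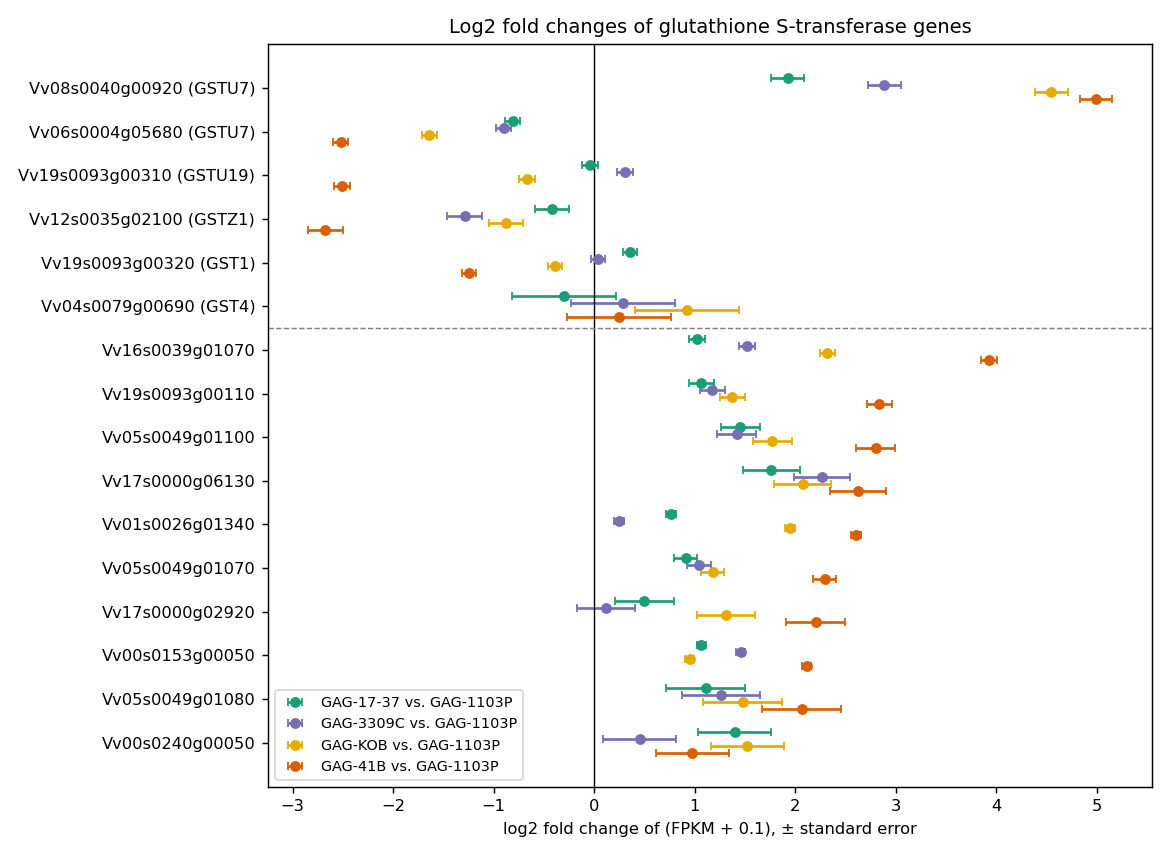
Log2 fold change of FPKM + 0.1 against GAG-1103P (horizontal axis) for the 6 genes above the dashed line and the 10 other glutathione S-transferase genes tested below it, with standard errors and a color for each comparison. The GAG-41B points run from −2.68 to 4.99 among the 6 genes and from 0.98 to 3.93 among the other 10.

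Among the 19 glutathione S-transferase genes listed, those that made up most of the summed level differed between combinations. Of these, 4 of the 6 and 9 of the 13 others come from the list of 4-fold changes, and the family may hold more genes. The sum and the shares therefore depend on how the genes were chosen. Summed over all 19 glutathione S-transferase genes, the level was 2057 ± 91.1 FPKM in GAG-1103P, 2424 ± 89.6 in GAG-17-37, 2722 ± 127 in GAG-3309C, 3925 ± 212 in GAG-KOB and 8877 ± 195 in GAG-41B (SD, n = 3). This was 0.123% of all FPKM in GAG-1103P and 0.401% in GAG-41B, a share that already counts the higher total of the GAG-41B libraries. The 6 genes together held 61.0% ± 0.495 of the sum in GAG-1103P, 36.0% ± 0.388 in GAG-17-37, 32.8% ± 1.02 in GAG-3309C, 13.6% ± 0.322 in GAG-KOB and 2.91% ± 0.243 in GAG-41B.

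Vv06s0004g05680 was the first of the listed genes in GAG-1103P, with 44.1% ± 1.07 of the sum, and held 1.79% ± 0.195 in GAG-41B. Vv16s0039g01070 held 20.7% ± 0.633 in GAG-1103P and was the first gene in the other 4 combinations, with 35.8% ± 1.17 in GAG-17-37, 44.8% ± 1.58 in GAG-3309C, 54.3% ± 0.593 in GAG-KOB and 73.0% ± 0.416 in GAG-41B. Both carry the annotation GSTU7, so that the leading transcript of the listed genes changed from 1 gene of that name to another. Vv08s0040g00920 never held more than 0.446% in any library, and Vv12s0035g02100 went from 0.766% to 0.0274%. Thus Vv08s0040g00920 had the largest ratio between combinations among the 6 genes but a small place in the sum.

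**Figure D4:**
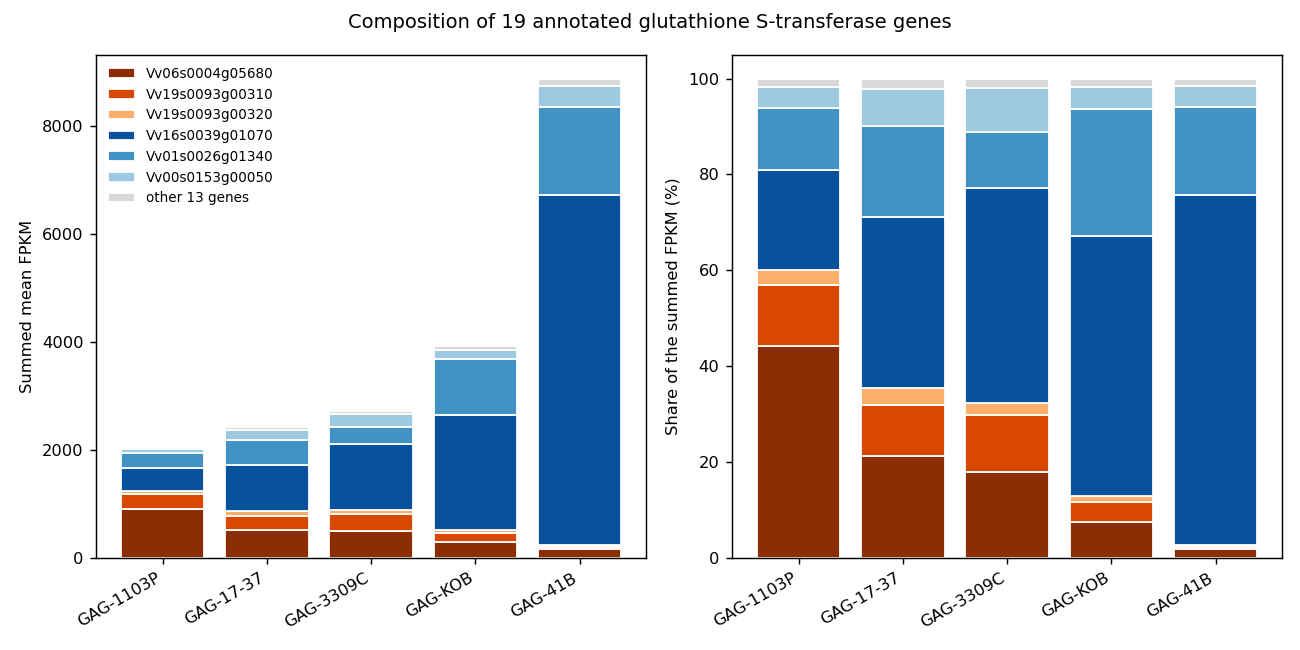
Mean FPKM of 19 glutathione S-transferase genes stacked by combination (left) and the same as a percent of their sum (right), with colors for the 6 most abundant genes and gray for the other 13. The sum rises from 2057 FPKM in GAG-1103P to 8877 in GAG-41B, while Vv06s0004g05680 shrinks from 44.1% to 1.79% and Vv16s0039g01070 grows from 20.7% to 73.0%.

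Genes of glutathione and redox metabolism were followed as the surroundings of these enzymes. Of 18 listed, 15 were tested, and in GAG-41B 12 rose and 2 fell, with a median log2 fold change of 2.72 against 0 over all genes, of which 34.4% rose and 34.4% fell. At an average of 1 FPKM or more, the largest increase was in an ascorbate oxidase, Vv07s0031g01070, an enzyme of the cell wall that oxidizes ascorbate, from 4.11 ± 0.349 to 94.9 ± 4.53 FPKM (log2 fold change 4.50, limma adjusted p 8.56e-13). The largest decrease was in a glucose-6-phosphate dehydrogenase, Vv14s0060g00640, which supplies NADPH, from 82.4 ± 4.87 to 16.2 ± 0.115 FPKM (−2.34, limma adjusted p 4.86e-12). The other gene that fell, Vv00s0207g00270 of the thioredoxin family, went from 288 to 239 FPKM. On 17-37Mgt 12 rose and 3 fell (18.6% and 15.6% of all genes), on 3309 Couderc 10 rose and 1 fell (22% and 21.1%), and on Kober 5BB 13 rose and 2 fell (26.9% and 25.7%). Of the 18, 14 come from the list of 4-fold changes drawn up on these libraries, and 2 of the 15 tested lay under 0.1 FPKM in GAG-1103P. In GAG-41B 11 rose and 1 fell by 4-fold or more. The counts, the median and the p-values are therefore not independent evidence, also when set beside all genes.

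Transporters of the MATE and multidrug resistance-associated families, some of which carry flavonoids or glutathione conjugates into the vacuole, moved in both directions. Of 17 listed, 15 were tested, and in GAG-41B 9 rose and 5 fell (median 1.97), beside 34.4% of all genes in each direction. Among transporters that averaged 1 FPKM or more, the MATE efflux protein gene Vv02s0025g04420 rose the most, from 9.61 ± 1.84 to 105 ± 12.7 FPKM (log2 fold change 3.44, limma adjusted p 9.66e-10). Vv12s0028g01150, annotated as TRANSPARENT TESTA 12 after the Arabidopsis carrier of tannin precursors, fell the most, from 20.1 ± 2.28 to 2.27 ± 0.267 FPKM (−3.09, limma adjusted p 1.40e-11). Chosen after its values were seen, the multidrug resistance-associated protein 3 gene Vv19s0015g00050 rose from 20.0 ± 0.752 to 113 ± 2.44 FPKM. Below that level, the MATE gene Vv13s0067g02980 went from 0.0827 to 2.16 FPKM, a log2 fold change of 3.65. In GAG-KOB 8 rose and 4 fell, beside 52.6% of all genes called. In GAG-3309C 4 rose and 2 fell and in GAG-17-37 4 rose and 1 fell, which is close to the share over all genes, 43.1% and 34.3%. Of the 17, 13 come from the list of 4-fold changes drawn up on these libraries, and 2 of the 15 tested lay under 0.1 FPKM in GAG-1103P. Here too, the counts, the median and the p-values are not independent evidence, also when set beside all genes.

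Of 17 genes annotated to modify anthocyanins, 15 were tested, and in GAG-41B 6 rose and 9 fell, with a median of −2.2, beside 34.4% of all genes in each direction. Among those that averaged 1 FPKM or more, Vv05s0062g00310, a glycosyltransferase annotated as UGT75C1, rose the most, from 0.583 ± 0.182 to 17.1 ± 1.61 FPKM (log2 fold change 4.69, limma adjusted p 1.27e-09). Vv18s0041g00840, a flavonoid glucosyltransferase, fell the most, from 21.1 ± 2.23 to 0.794 ± 0.185 FPKM (−4.58, limma adjusted p 1.15e-10). On Kober 5BB 6 rose and 8 fell (52.6% of all genes called), on 3309 Couderc 5 rose and 7 fell (43.1%), and on 17-37Mgt 7 rose and 4 fell (34.3%). Of the 17, 15 come from the list of 4-fold changes drawn up on these libraries, and in GAG-41B 5 rose and 9 fell by 4-fold or more. The counts, the median and the p-values are therefore not independent evidence, also when set beside all genes.

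The genes whose levels over the 15 libraries were most like those of the 6 were sought among the 17851 genes that averaged 1 FPKM or more, and those with an annotation are named. For Vv08s0040g00920 this was Vv03s0091g00160, annotated as the secretory protein NtPRp27 of tobacco (r 0.99), which had 217 ± 17.5 FPKM in GAG-1103P and 1289 ± 98.6 in GAG-41B. The most opposite annotated gene was Vv13s0067g02120, an arogenate dehydrogenase of tyrosine synthesis (r −0.98), with 27.8 ± 2.39 FPKM in GAG-1103P and 6.10 ± 0.539 in GAG-41B. For Vv06s0004g05680 they were Vv12s0134g00510, the PETC subunit of the cytochrome b6f complex in photosynthetic electron transport (r 0.99), and Vv13s0019g01010, annotated as ABA2, which in Arabidopsis makes a late step of abscisic acid synthesis (r 0.99). The PETC gene had 76.8 ± 4.23 FPKM in GAG-1103P and 12 ± 1.39 in GAG-41B, and the ABA2 gene 72.8 ± 3.96 and 14.8 ± 1.42.

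For Vv19s0093g00310, the kelch-like gene Vv08s0007g07120 shared the high level in GAG-3309C, with 1186 ± 160 FPKM against 870 ± 44.0 in GAG-1103P and 153 ± 10.3 in GAG-41B (r 0.996). For Vv19s0093g00320 they were Vv11s0037g00580 and Vv11s0037g00590, adjacent genes annotated as anthranilate N-hydroxycinnamoyl/benzoyltransferase (r 0.98 for each), which were below 1 FPKM in GAG-41B, at 0.437 ± 0.0759 and 0.489 ± 0.246 FPKM against 10.9 ± 0.546 and 22.6 ± 3.75 in GAG-1103P. For Vv12s0035g02100 it was Vv18s0001g10690, annotated as BKI1, an inhibitor of the brassinosteroid receptor in Arabidopsis (r 0.98), at 113 ± 3.40 and 16.7 ± 0.357 FPKM. For Vv04s0079g00690 the highest r among annotated genes was 0.67, with a beta-ketoacyl-CoA synthase, Vv07s0141g00060, followed by 0.61 with a pentatricopeptide repeat protein, Vv00s0271g00080. The 15 libraries of these correlations form 5 groups of 3, so that likeness reflects 5 combination means above all.

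The genes next to the 6 by identifier did not follow them as blocks. Of 20 neighbors within 2 identifiers on either side, 14 were tested, and in GAG-41B 6 rose and 5 fell, close to the 34.4% of all genes in each direction. Beside Vv06s0004g05680, Vv06s0004g05660, a family 1 glycosyl transferase, rose in GAG-41B by a log2 fold change of 2.23 (limma adjusted p 1.70e-06), in the other direction than the glutathione S-transferase, and Vv06s0004g05690, at a mean of 0.828 FPKM over all libraries, fell by 3.18 (limma adjusted p 0.00669). Beside Vv08s0040g00920, Vv08s0040g00930, annotated as a B-type cyclin at a mean of 0.298 FPKM, rose by 2.07 (limma adjusted p 0.00105), and Vv08s0040g00900 fell by 1.76 (limma adjusted p 2.11e-08). Only Vv19s0093g00310 and Vv19s0093g00320 were neighbors of each other among the 6.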

How the data were processed

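The authors filtered single-end reads, aligned them to the PN40024 12X genome with TopHat2 2.0.14 and Bowtie2 2.2.4, and computed the deposited FPKM values with Cufflinks 2.2.0, normalized between libraries (versions from the submitters' processing notes, which also name CASAVA 1.8.2 and DESeq 1.6.3). All 15 columns were matched to libraries by name and 0 were left out. FPKM holds no read counts per gene, so that a count test such as that of DESeq was not run. The study's supplement lists sequenced and mapped reads for each library, which were not used here.

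Values were analyzed as log2(FPKM + 0.1). The 21364 of 29970 genes that averaged 0.1 FPKM or more were fitted together with limma 3.58.1 (R 4.3.3), with 1 mean per combination, all 15 libraries and a variance trend. Tests were two-sided, with Benjamini-Hochberg adjustment over all genes tested. The fit was tested on simulated data. The replicates were pools of leaves from several vines that stood together, and the labels give only their letters. The p-values thus measure the spread between such pools and not between places in the vineyard. Library sums and ratios were computed in Python 3.11.15 (pandas 2.3.3, numpy 2.4.6), and plots were drawn with matplotlib 3.10.9.

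The 6 genes and all lists were chosen with earlier results of these data known. The genes named were the 6, all other annotated glutathione S-transferases, the largest increase and decrease of each further list in GAG-41B (threshold passed, average of 1 FPKM or more, no overlap), the 2 most similar annotated genes (those described as unknown are not named) and the neighbors that moved most. Annotations come from the study's supplement, part of which could not be read, so that the lists may miss genes. The names GST1 and GST4 came with the list of the 6 genes instead. Of the identifiers, 0 matched the RefSeq table, and no sequence is shown. Alternatives were pseudocounts of 1 and 0.01, no filter or a filter of 1 FPKM, 3 other scalings, no variance trend, fits of 2 combinations, a replicate block and leaving out libraries. The letters were checked as pairs by the correlation of deviations from the combination means.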

Additional observations from a re-analysis of the deposited data

How the results depend on the processing

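Under 26 alternatives, the counts of other glutathione S-transferase genes that rose stayed between 8 and 10 in GAG-41B and GAG-KOB and between 7 and 9 in the other 2 comparisons, and 0 fell in any. In GAG-41B, 10 to 13 redox genes rose and 2 fell, 8 to 10 transporters rose and 5 fell, and 5 to 6 anthocyanin genes rose and 8 to 9 fell. The call of Vv00s0240g00050 in GAG-41B was also lost with equal totals (0.63), with quantile normalization (0.78) and in the fit of 2 combinations, and the cause was not tested. The fold changes of the 6 genes in GAG-41B depended on scaling. With the same FPKM total in every library, which moved the median of all genes by −0.38, Vv08s0040g00920 was at 4.60, Vv06s0004g05680 at −2.92, Vv19s0093g00310 at −2.91, Vv12s0035g02100 at −3.06 and Vv19s0093g00320 at −1.65. Quantile normalization moved that median by −0.13 and put Vv06s0004g05680 at −2.91, Vv19s0093g00310 at −2.71 and Vv19s0093g00320 at −1.34. A pseudocount of 1 put Vv08s0040g00920 at 3.87 and Vv12s0035g02100 at −2.30. One transporter, Vv00s0225g00050, changed sign, from 0.35 to −0.054 with equal totals. The replicate letters were not taken as pairs, since deviations of libraries with the same letter correlated between −0.09 and 0.20 and 5 of 15 libraries were closest to their own letter. Letter A stood apart in part, with 4 of its 10 pairs over 0.1 and 0 for B and C. Replicate A was the highest library in all 5 combinations for 6 transporters (among them Vv02s0025g04420). The same held for 2 redox genes (among them Vv07s0031g01070) and 2 anthocyanin genes (among them Vv18s0041g00840). Replicate A was the lowest for Vv16s0039g01070 and Vv05s0049g01070. A replicate block raised the genes called from 7323 to 9511 in GAG-17-37, from 9205 to 10959 in GAG-3309C, from 11242 to 12726 in GAG-KOB and from 14703 to 15602 in GAG-41B. Without replicate A in every combination, the counts of the other family members that rose were 10, 10, 8 and 9 in GAG-41B, GAG-KOB, GAG-3309C and GAG-17-37. With a replicate block these counts were also 10, 10, 8 and 9. FPKM without read counts limits what can be said of genes near 1 FPKM, such as Vv04s0079g00690.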
